A study of Mus musculus with 18 samples.

Results

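The genes of solute carriers were examined in the ac4C profiles of mouse hippocampus. A gene was taken as a member when its name in the peak tables began with Slc and a digit and it had at least 1 peak in any of the 6 mice, which gave 145 of the 7598 genes with a peak. The profiles came from acRIP-seq, in which fragmented RNA is captured with an antibody to ac4C (N4-acetylcytidine, cytidine with an acetyl group) and sequenced beside its own input and an IgG capture. Libraries of 3 kinds (anti-ac4C, input and IgG) were made from each of 3 WT and 3 5xFAD mice, all aged 6 months, 18 libraries in all. The 5xFAD line, on C57BL/6J, carries human transgenes with familial Alzheimer mutations, driven in neurons by the mouse Thy-1 promoter, among them APP with the mutations named Swedish, Florida and London. The WT mice carry no transgene. The methods give a sex for 3-month mice only, not for those aged 6 months. Samples of a genotype are called mouse 1, 2 and 3 here, after the replicate numbers of the labels.

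Solute carriers are membrane proteins that move ions, amino acids, sugars, metals, nucleotides and vitamins across the plasma membrane or the membranes of organelles, either down a gradient or coupled to the gradient of another ion. In the hippocampus, carriers of astrocytes clear glutamate and GABA after release, vesicular carriers load transmitters, and chloride carriers set the direction of GABA currents. NAT10, the enzyme that writes ac4C, uses acetyl-CoA as its acetyl donor, and a few carriers (the mitochondrial citrate carrier Slc25a1 among them) lie on the routes that supply it.

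A peak is a stretch of exon where the anti-ac4C library exceeded the input, and its fold enrichment is the ratio listed in the deposited tables. The level of an mRNA is the sum of the fold enrichments of its peaks in a mouse, 0 where none was listed. It therefore reflects both how many peaks were listed and how high they were. The 6 mice had 7434 to 10234 peaks on 4268 to 5133 mRNAs, and read depth is unknown. One table stood apart: 5xFAD mouse 3 had a median fold enrichment of 13.05 over all peaks, against 6.88 to 7.63 in the other 5 mice, and a median listed false discovery rate of 100%, against 37.38 to 68.07%. No solute carrier peak had a listed rate under 5% in any mouse, although the methods describe a filter on adjusted p at that level, so the listed rates and the stated filter do not match and the stringency behind a listed peak is uncertain. Fold enrichments are compared as listed and also on one scale, meaning after each mouse was given 1 multiplier that set the median of the mRNAs with peaks in all 6 mice to a common value. Among markers of the tissue, Syt1 and Prox1 of neurons and Slc1a2 and Slc1a3 of astrocytes had peaks in all 6 mice, while Camk2a, Neurod2, Aqp4, Gja1 and Mog had none in any mouse, so a missing peak was not read as a missing mRNA.

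Between 71 and 109 solute carrier mRNAs had a peak in a mouse. The counts were 86, 76 and 73 in WT mice, against 109, 94 and 71 in 5xFAD mice, so the highest counts and the lowest were both found in 5xFAD. The means were 78.3 ± 6.81 and 91.3 ± 19.1 (SD, n = 3 each), and the difference of 13 was within the spread between mice (two-sided exact permutation p = 0.4, where 3 against 3 mice give 0.1 at the least). It was 23.2 without 5xFAD mouse 3 and 4.17 without 5xFAD mouse 1. Peaks on these mRNAs numbered 133, 116 and 111 in WT, against 186, 159 and 116 in 5xFAD (difference 33.7, exact permutation p = 0.3), and the difference was 52.5 without 5xFAD mouse 3 and 17.5 without 5xFAD mouse 1. When every mouse was given the same number of its top-scoring peaks, the differences were -1.33 mRNAs and 0 peaks. Solute carriers made up 1.61 to 2.12% of the ac4C mRNAs of a mouse and carried 1.52 to 1.71 peaks each, against 1.74 to 1.99 for all ac4C mRNAs.

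The median fold enrichment of a solute carrier peak was 6.72, 6.745 and 6.94 in WT mice, against 7.445, 7.10 and 13.57 in 5xFAD mice. Each 5xFAD mouse stood above each WT mouse (difference 2.57, exact permutation p = 0.1, the smallest possible). Without 5xFAD mouse 3 the difference was 0.471, and on one scale it was -1.15 (exact permutation p = 0.3), so its direction depended on how the tables were scaled. Over all peaks the medians were 7.16, 7.1 and 6.88 in WT mice, against 7.63, 7.44 and 13.05 in 5xFAD mice. The same split was thus present there and was not particular to solute carriers.

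**Figure D1:**
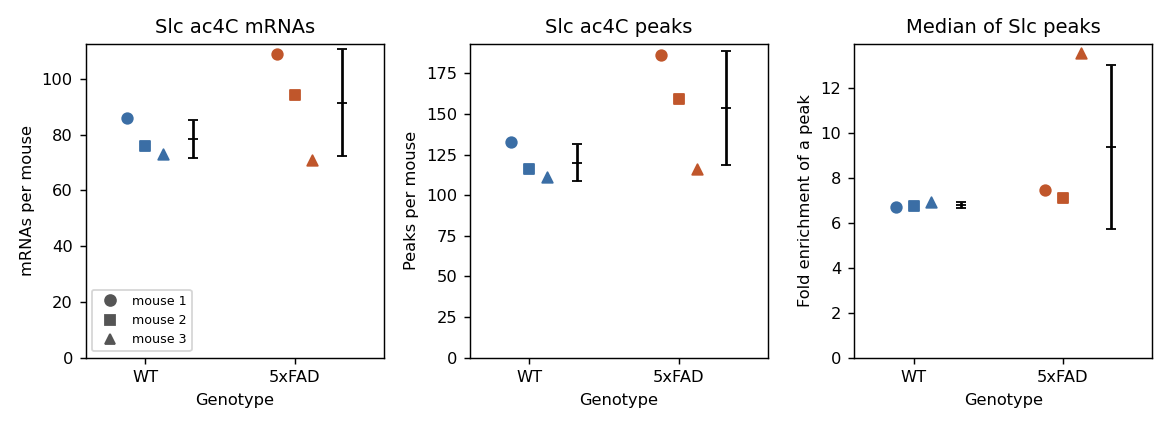
Solute carrier ac4C mRNAs, their peaks and the median fold enrichment of those peaks in each mouse, with the mean and SD of each genotype (n = 3) as a bar to the right of the points. The mRNA counts of 5xFAD run from 71 to 109 and enclose those of WT, and 5xFAD mouse 3 has the fewest mRNAs but the highest median, 13.57.

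Solute carrier peaks were classed as coding sequence less often than other peaks were. This class of the tables, which leaves out exons with a start or stop codon, held 39.2% ± 1.57 of the solute carrier peaks and 51.4% ± 1.63 of all other peaks (mean over mice ± SD, n = 6 mice), a gap of -12.3 points that was present in 6 of 6 mice (two-sided exact sign-flip permutation p = 0.0312, the smallest that 6 mice allow, and 0.039 after adjustment over the 5 classes). The 5' UTR held 12.3% against 8.13%, the exon with the start codon 24.3% against 20% and the 3' UTR 4.68% against 2.21%, each higher in 6 of 6 mice (exact permutation p = 0.0312 and adjusted 0.039 for each). Exons with the stop codon held 19.5% against 18.2% (5 of 6 mice, exact permutation p = 0.281). This comparison was chosen after the values were seen, and since the same genes recur in each mouse, its p covers the spread between mice and not the choice of genes. Between genotypes the coding share of solute carrier peaks was 38.9% ± 0.657 in WT and 39.4% ± 2.36 in 5xFAD (n = 3 each, exact permutation p = 1.0). The difference of 0.488 points was -0.875 without 5xFAD mouse 2 and -1.84 with equal numbers of top peaks.

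**Figure D2:**
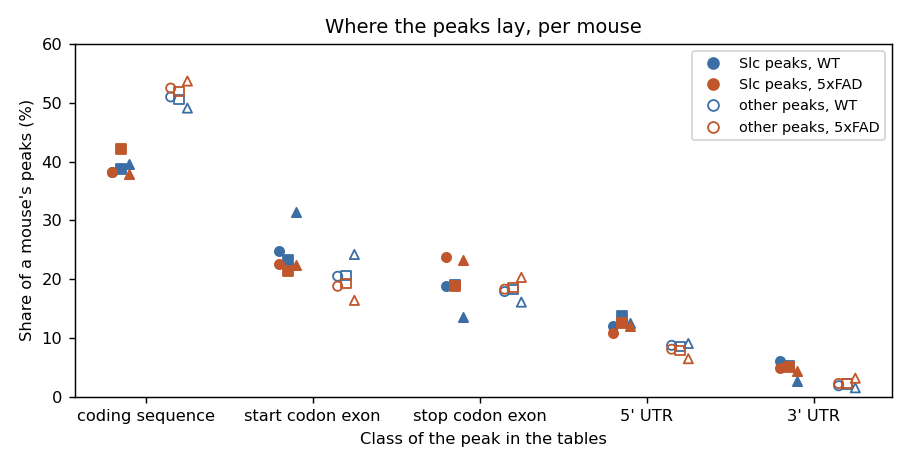
Share of the peaks of a mouse in each class of the tables, in percent, for solute carrier peaks (filled) and all other peaks (open), with the shape giving the mouse number (circle 1, square 2, triangle 3). The filled points for coding sequence, from 37.9 to 42.1%, lie below the open ones, from 49.1 to 53.7%.

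Merged over the mice, the peaks formed 328 solute carrier regions of 20038 regions in all, and 20 of the 328 were listed in all 6 mice (6.1%, against 8.63% of all regions). Slc4a8, a sodium-driven chloride/bicarbonate exchanger of neurons, had the most, 11 regions, and 67 members had 1 region. Solute carrier regions had a median length of 250.5 bases and a median cytidine content of 29.2%, against 222 bases and 28.4% for all regions. The motif searched was the unit CNN (N is any base) repeated 4 times and closed by a C, which is the cytidine-rich pattern often linked to ac4C. Searched on the strand of the mRNA only, with overlapping matches counted, it was found in 204 of 328 solute carrier regions (62.2%) and in 55.0% of all regions. Longer regions hold it more often. Per kb there were fewer matches in solute carrier regions, 6.42 against 7.13 in all regions. That density was higher than in all regions at lengths up to 250 bases and lower in longer ones. At lengths over 150 and up to 250 bases it was in 54.3% of solute carrier regions and 46.9% of all, and over 400 bases in 91.7% and 85.7%. At lengths over 250 and up to 400 bases the order was the other way, 65.9% against 70.1%. The median cytidine content was 28% in the 126 solute carrier regions listed in 1 mouse and 33% in the 20 listed in all 6, beside 26.6% and 31.7% for all regions.

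Of the 6 regions classed as coding sequence that were listed in all 6 mice, 5 (of 4 carriers) are shown because they mark where the signal recurred. The 5 shown are whole exons (mm10, mRNA sense, written as DNA), and capitals mark each match to the motif. The remaining region, of Slc39a6, was at 22.46 to 77.15 over the 6 mice with 7 matches to the motif, and its sequence is not shown.
Slc13a4, chr6:35280309-35280496, minus strand: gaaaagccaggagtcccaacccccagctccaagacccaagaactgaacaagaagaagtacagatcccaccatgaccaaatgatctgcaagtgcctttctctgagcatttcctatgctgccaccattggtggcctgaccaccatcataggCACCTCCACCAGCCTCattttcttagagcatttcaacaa
Slc13a4, chr6:35283239-35283319, minus strand: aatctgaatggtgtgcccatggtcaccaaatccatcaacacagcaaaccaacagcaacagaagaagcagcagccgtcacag
Slc29a4, chr5:142717592-142717836, plus strand: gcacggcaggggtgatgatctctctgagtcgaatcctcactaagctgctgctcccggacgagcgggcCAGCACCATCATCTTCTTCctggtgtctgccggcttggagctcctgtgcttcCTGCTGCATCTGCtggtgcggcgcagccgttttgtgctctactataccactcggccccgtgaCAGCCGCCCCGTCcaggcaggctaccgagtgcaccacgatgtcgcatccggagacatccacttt
Slc4a4, chr5:89129639-89129726, plus strand: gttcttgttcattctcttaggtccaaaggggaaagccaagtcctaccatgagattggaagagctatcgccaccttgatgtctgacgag
Slc35f1, chr10:52933092-52933267, plus strand: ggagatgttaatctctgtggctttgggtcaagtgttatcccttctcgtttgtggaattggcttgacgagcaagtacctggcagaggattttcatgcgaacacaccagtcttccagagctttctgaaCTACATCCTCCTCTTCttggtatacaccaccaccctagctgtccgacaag
Cytidine made up 32.4% and 29.6% of the exons of Slc13a4, 34.3% of that of Slc29a4, 22.7% of that of Slc4a4 and 26.1% of that of Slc35f1. The exon of Slc29a4 held 5 matches, those of Slc35f1 and the first of Slc13a4 held 2 each and the other 2 exons none. Among all regions within 10% of their lengths, 58.0%, 42.7%, 45.1%, 13.1% (second exon of Slc13a4) and 15.7% (Slc4a4) held a match. A match is a description of the letters and not a mapped site.

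In all, 30 of 145 members had a peak in every mouse (20.7%, against 26.7% of all ac4C mRNAs), and 29 were listed in a single mouse. Reliable members, those listed in 2 or 3 mice of a genotype, numbered 104, and the other 41 were not tested. Of the 104, 67 were reliable in both genotypes (overlay), 24 in 5xFAD only (AD unique) and 13 in WT only (AD absent).

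The highest level belonged to Slc1a2, the glutamate transporter GLT-1 of astrocytes. Its summed fold enrichment was 51.24, 55.93 and 31.32 in WT mice, against 62.30, 72.67 and 82.64 in 5xFAD mice. The genotypes did not overlap, but the log2 fold change of 0.67 ± 0.534 (SE) did not pass the test (limma, adjusted p = 0.801), and on one scale it was 0.07. Most of the signal lay in the exon with its start codon (chr2:102658659-102659301), which is largely 5' UTR and reached 21.28 to 52.99 in the 6 mice. Slc39a6, a zinc importer, followed with 48.90, 32.27 and 27.59 in WT, against 55.14, 48.21 and 85.52 in 5xFAD. Slc45a1, a proton-coupled sugar carrier, had no peak in WT mouse 1 and 10.58 in 5xFAD mouse 1, while the other 4 mice lay between 45.99 and 83.41. Slc29a4, a plasma membrane monoamine transporter, stood at 27.75, 28.40 and 46.69 and at 47.11, 44.59 and 79.53. Mice of one genotype thus spread widely, and Slc45a1 ranged from 0 to 79.03 within WT.

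The other members among the 10 most enriched were Slc13a4, a sulfate transporter of choroid plexus and meninges, Slc6a11, the GABA transporter GAT-3, Slc4a4, the sodium bicarbonate cotransporter NBCe1 of astrocytes, Slc25a23, a calcium-regulated ATP-Mg/phosphate carrier of mitochondria, Slc44a1, a choline transporter, and Slc35f1, a carrier whose substrate is not settled. Of these, Slc4a4 was at 10.26, 14.01 and 67.83 in WT, against 12.78, 17.47 and 118.6 in 5xFAD. Slc25a23 was at 28.35, 27.34 and 20.84 in WT, against 34.80, 25.95 and 101.5 in 5xFAD. In both, 5xFAD mouse 3 was the highest of the 6, and for Slc4a4 WT mouse 3 came next. The values of Slc25a23 came from 1 region in the mice numbered 2 and from another in the rest.

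Among the members that varied least over the 6 mice were Slc25a22, a mitochondrial glutamate carrier, Slc35e3, Slc35d1, a carrier of UDP-sugars in the endoplasmic reticulum, and Slc1a2. Slc25a22 ranged from 8.52 to 13.21, with 1 peak in each mouse and a coefficient of variation of 15.28%. Slc35e3 ranged from 9.48 to 15.58 (18.21%) and Slc35d1 from 15.70 to 29.90 (24.39%).

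**Figure D3:**
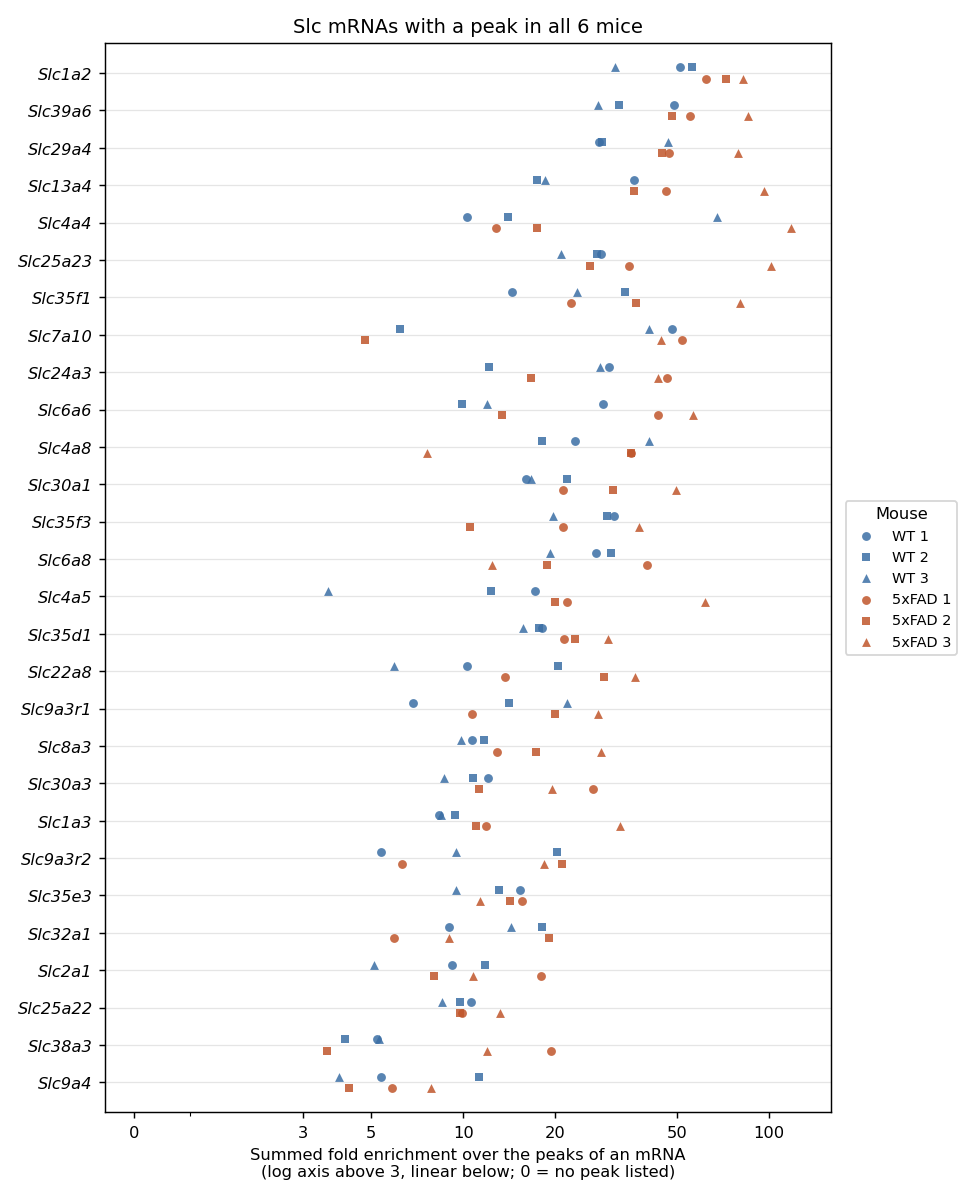
Summed fold enrichment of 28 of the 30 solute carrier mRNAs with a peak in all 6 mice, ordered by their mean, with 1 point per mouse (blue WT, orange 5xFAD; circle mouse 1, square mouse 2, triangle mouse 3) on an axis that is logarithmic above 3. Slc1a2 is at the top with 31.32 to 82.64, and for Slc7a10 both mice numbered 2 lie far to the left, at 6.22 and 4.76.

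For many members the mice that carried the same number were alike, whatever their genotype. Slc6a11 was listed at 73.36, 0 and 42.30 in WT, against 98.82, 0 and 54.15 in 5xFAD. Slc44a1 was at 34.79, 0 and 31.98 and at 40.83, 0 and 111.9, and Slc7a10, an exchanger of small neutral amino acids, at 48.25, 6.22 and 40.65 and at 52.22, 4.76 and 44.33. In each of these 3 genes both mice numbered 2 were low. In 24 of 145 members (16.6%) the mice with a peak were the same numbers in both genotypes without being all 6, beside 15.5% of all ac4C mRNAs. The share of members listed in both of a pair, out of those listed in either, was 63.9%, 68.3% and 51.6% for the same numbers and 44 to 52.9% for different numbers across genotypes. Since same-numbered mice deviated together, fits with the number as a block were run beside the others, and they are given where they change a call or a count.

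The genotypes were compared over all 5444 reliable mRNAs with limma, on log2(fold enrichment + 1). Adding 1 shrinks ratios between low listed values, but an mRNA with no peak is set at 0. Since no listed solute carrier peak was under 3.16, listing in 1 genotype alone gives a large change even for weak peaks. None of the 104 members passed an adjusted p of 0.05, nor did any of the 5444 (0%). At an unadjusted p under 0.05, 8 members were higher in 5xFAD (of all mRNAs 5.03% were) and 0 lower (0.606%). The 8 were Slc15a3, Slc11a1, Slc19a1, Slc6a9, Slc27a4, Slc25a18, Slc25a1 and Slc23a2. All but Slc23a2 were AD unique, so they entered the fit through 5xFAD alone and their p do not support a difference. The median log2 fold change was 0.72 over the members and 0.54 over all reliable mRNAs, and on one scale 0.18 and 0.02. As listed, 72 members were higher and 32 lower in 5xFAD, beside 4085 and 1359 of all reliable mRNAs, and on one scale 58 and 46, beside 2802 and 2642. Without 5xFAD mouse 3, 7 of 97 members were called higher, where 4.89% of all mRNAs tested were called. These 7 were Slc11a1, Slc15a3 and Slc19a1 with Slc12a9, Slc2a6, Slc30a4 and Slc5a6, and the last 4 also had no peak in 5xFAD mouse 3. None of the 7 had a peak in any WT mouse, so each entered the fit through 5xFAD alone and had to differ, and the count is no support for a difference. In limma over the 3851 overlay mRNAs none passed (0%). Of the 67 members there, 1 was higher at an unadjusted p under 0.05 (2.39% of all) and 0 lower (0.0519%).

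**Figure D4:**
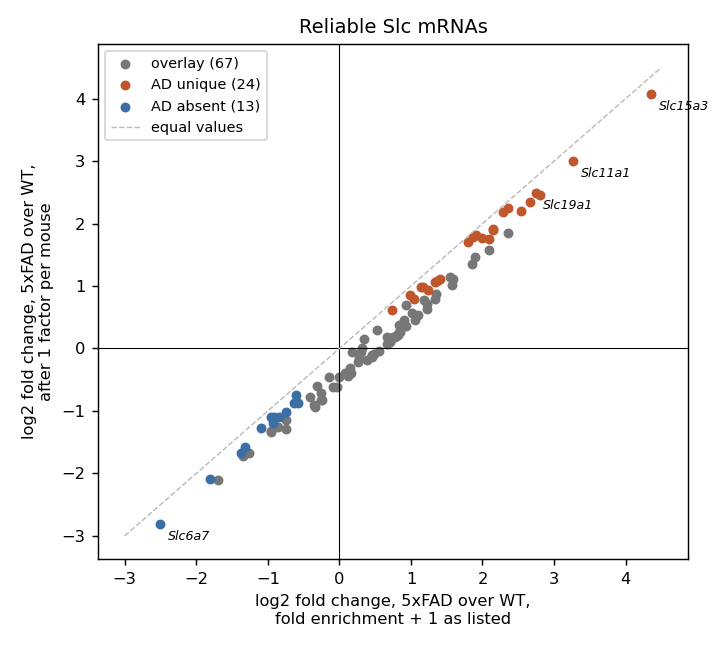
Log2 fold change of 5xFAD over WT for the 104 reliable solute carrier mRNAs, from fold enrichments as listed (x axis) and after 1 factor per mouse (y axis), with the dashed line at equal values. Points lie below the line, and the counts above and below 0 go from 72 and 32 to 58 and 46. Where a genotype was listed at 0 in all mice, the position depends on the 1 that was added.

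For 3 members a peak was listed in 3 of 3 5xFAD mice and in 0 of 3 WT mice, and 0 members had the reverse (88 and 21 of all ac4C mRNAs did). Slc15a3, a lysosomal peptide and histidine transporter of myeloid cells, was listed at 19.32, 36.46 and 10.48 in 5xFAD and at 0 in each WT mouse (limma, adjusted p = 0.0772). Slc11a1, a divalent metal transporter of macrophage phagosomes, was at 6.84, 6.88 and 13.57 and at 0 in each WT mouse (adjusted p = 0.0845). Slc19a1, the reduced folate carrier, was at 5.35, 4.46 and 7.78 and at 0 in each WT mouse (adjusted p = 0.111). These genes passed the filter on reliable mRNAs through 5xFAD alone, and with the WT values all 0 the WT mice add no spread to the fits, so the p given here describe the listing and do not support a split. Over the settings in which each was tested, the adjusted p ranged from 0.00623 to 0.512 for Slc15a3 and Slc11a1 and from 0.00632 to 0.843 for Slc19a1, and the 3 genes passed 0.05 without 5xFAD mouse 3 (adjusted p = 0.0283 for each) but not with the replicate block (0.209, 0.209 and 0.221).

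Their regions are shown because they were listed in each 5xFAD mouse and in no WT mouse. Slc15a3 had its recurrent peak over exon 1 of 8 (chr19:10842544-10843578; 5xFAD mouse 2 had a further peak of 18.31 in the 3' UTR), Slc11a1 over the last of 15 exons (chr1:74385393-74385953) and Slc19a1 over exon 3 of 6 (chr10:77041816-77042569). The coding bases of the region of Slc11a1 are given whole, and of the other 2 the first run of 150 coding bases with the most matches to the motif, so that matches within them are no finding (capitals mark matches; mm10, mRNA sense, as DNA).
Slc15a3, chr19:10843057-10843206, plus strand: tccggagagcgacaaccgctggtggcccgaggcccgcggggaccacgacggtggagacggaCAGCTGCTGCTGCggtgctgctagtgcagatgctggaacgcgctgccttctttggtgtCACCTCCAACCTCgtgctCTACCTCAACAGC
Slc11a1, chr1:74385393-74385506, plus strand: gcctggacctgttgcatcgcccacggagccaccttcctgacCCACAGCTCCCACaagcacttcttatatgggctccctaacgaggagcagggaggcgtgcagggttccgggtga
Slc19a1, chr10:77041924-77042073, plus strand: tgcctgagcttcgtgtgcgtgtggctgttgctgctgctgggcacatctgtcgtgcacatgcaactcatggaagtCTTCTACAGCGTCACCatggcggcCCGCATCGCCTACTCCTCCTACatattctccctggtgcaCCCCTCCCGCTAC
Over the whole regions, cytidine made up 23.9% in Slc15a3, 28% in Slc11a1 and 32.5% in Slc19a1, and matches numbered 5, 2 and 14. Of all regions of like length, 87.1%, 78.9% and 82.5% held a match. Tested as regions, none of the 152 reliable solute carrier regions passed in limma, nor did any of 10027 (0%). At an unadjusted p under 0.05, 6 were higher in 5xFAD (4.57% of all were) and 1 lower (0.539%). The 6 passed the filter on reliable regions through 5xFAD alone, and the 1 lower through WT alone. Their p, under any setting, thus describe the listing and do not support a difference. The regions of Slc15a3 and Slc11a1 had an adjusted p of 0.0862 each as listed, 0.0463 each on one scale and 0.143 each with the block. Without 5xFAD mouse 3, 11 of 136 solute carrier regions were called, where 9.38% of all were called. A region can pass the filter through 1 genotype alone, so this count is no support for a difference.

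Markers of microglia are given beside these values. Each of the 5 markers Csf1r, Cx3cr1, P2ry12, Tmem119 and Itgam had a peak in some mouse, and their summed fold enrichment was 15.81 to 32.06 in WT mice, against 58.04 to 79.17 in 5xFAD mice (on one scale 22.45 to 37.08 and 52.38 to 64.2). As listed 5 were higher in 5xFAD and 0 lower, on one scale 4 and 1, and none passed the test (unadjusted limma p of 0.109 to 0.509). Tmem119 was at 0 in each WT mouse, while P2ry12 was at 6.61, 6.97 and 4.07 in WT, against 5.40, 5.78 and 41.12 in 5xFAD. The part of microglia in the values of Slc15a3, Slc11a1 and Slc2a5 was not tested, and in whole hippocampus a change in the number of cells of a type and a change in RNA per cell cannot be told apart. Slc2a5, a fructose transporter known from microglia, was listed at 6.80, 0 and 9.92 in 5xFAD and at 0 in each WT mouse.

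Genotypes did not overlap for 17 of the 104 reliable members, all higher in 5xFAD, where 14.7% of all reliable mRNAs were higher without overlap and 0.771% lower. On one scale 4 members were higher and 4 lower without overlap, where 4.94% and 3.62% of all were, so these counts lie near the background. Among the 17 were Slc6a9, the glycine transporter GlyT1, at 0, 4.98 and 0 in WT, against 9.60, 13.06 and 12.58 in 5xFAD (log2 fold change 2.80 ± 0.844, adjusted p = 0.564), and Slc25a18, a mitochondrial glutamate carrier of astrocytes, at 7.32, 0 and 0 and at 8.82, 13.53 and 14.10 (adjusted p = 0.582). Slc23a2, the vitamin C transporter SVCT2, stood at 0, 3.16 and 9.65 and at 19.95, 20.56 and 11.92 (2.35 ± 0.944, adjusted p = 0.582). Unlike Slc23a2, Slc6a9 and Slc25a18 passed the filter on reliable mRNAs through 5xFAD alone, so their p describe the listing. In 5xFAD mouse 2 a further peak of Slc6a9, at 6.8, lay in an exon with a start codon. The recurrent peak of Slc6a9 lay over exon 5 of 14, a coding exon that held 8 matches to the motif. This exon is shown as the region of the gene that limma tested.
Slc6a9, chr4:117857203-117857473, plus strand: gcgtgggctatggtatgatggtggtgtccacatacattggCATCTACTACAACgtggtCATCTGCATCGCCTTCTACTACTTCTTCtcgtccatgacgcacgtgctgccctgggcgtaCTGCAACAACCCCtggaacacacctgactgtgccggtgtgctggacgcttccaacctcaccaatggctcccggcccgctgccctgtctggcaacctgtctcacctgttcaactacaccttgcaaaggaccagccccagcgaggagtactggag
It was 33.2% cytidine, and 64.6% of all regions of like length held at least 1 match.

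**Figure D5:**
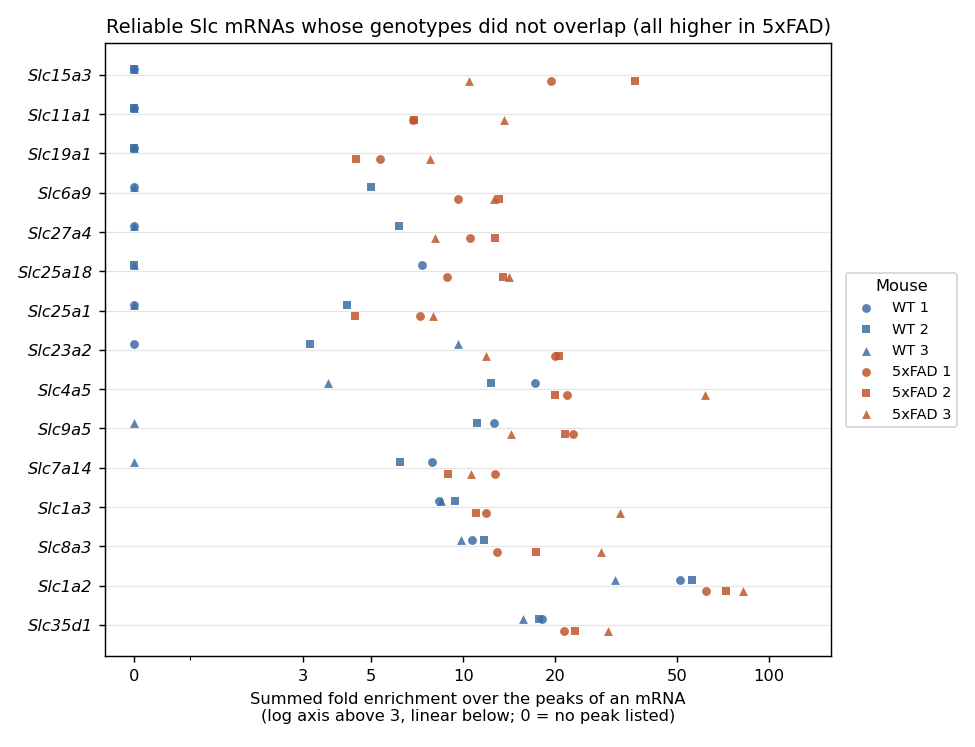
Summed fold enrichment of 15 of the 17 reliable solute carrier mRNAs whose genotypes did not overlap, ordered by the unadjusted limma p, with 1 point per mouse (blue WT, orange 5xFAD) on an axis that is logarithmic above 3 and shows mRNAs with no peak at 0. Slc15a3, Slc11a1 and Slc19a1 have all 3 WT mice at 0, while for Slc1a2 and Slc35d1 at the bottom the genotypes lie side by side.

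No member was lower in 5xFAD without overlap. The lowest by its p was Slc6a7, the proline transporter of excitatory terminals, at 6.22, 49.22 and 4.71 in WT, against 0, 10.40 and 0 in 5xFAD (log2 fold change -2.50 ± 1.31, adjusted p = 0.598, and 0.228 with the replicate block). Its level was lower in 5xFAD in 3 of 3 same-numbered pairs, with differences of -6.22, -38.82 and -4.71. In pairs 1 and 3 the difference is the WT value against no listed peak. Slc6a7 was AD absent and passed the filter on reliable mRNAs through WT alone. Its p and pair differences thus describe the listing and do not support a difference. Slc35a2, a transporter of UDP-galactose that was also AD absent, was listed at 26.45, 0 and 19.70 in WT, against 12.05, 0 and 0 in 5xFAD.

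The carriers of glutamate and of vesicles had 6 members, 4 of them reliable. Of these, 3 were higher in 5xFAD and 1 lower, and none passed. Slc1a3, the astrocytic transporter GLAST, was at 8.33, 9.39 and 8.49 in WT, against 11.85, 11.05 and 32.52 in 5xFAD (0.83 ± 0.617, adjusted p = 0.780). Slc1a6, a glutamate transporter best known from Purkinje cells, was at 11.43, 8.86 and 0 and at 8.75, 7.98 and 15.40. Slc32a1, which loads GABA and glycine into vesicles, was at 8.99, 18.06 and 14.32 and at 5.95, 19.11 and 9, so the genotypes overlapped. In the mice numbered 1 its peak lay in the exon with the stop codon, and in the rest in that with the start codon. The vesicular glutamate transporters were hardly seen: Slc17a7 had 1 peak, in 5xFAD mouse 1, and Slc17a6 had 1, in WT mouse 2.

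Among the 8 carriers of GABA, glycine, proline, taurine and creatine, 7 were reliable, 4 higher and 3 lower as listed and 3 and 4 on one scale, and none passed. Slc6a6, the taurine transporter, was at 28.58, 9.91 and 12 in WT, against 43.40, 13.43 and 56.66 in 5xFAD. Slc6a8, the creatine transporter, was at 27.16, 30.36 and 19.19 and at 40.07, 18.76 and 12.38, and Slc6a17, a vesicular carrier of neutral amino acids, at 19.52, 16.20 and 10.84 and at 29.09, 28.43 and 0. Slc6a20a, a proline and imino acid carrier, was listed in 1 mouse of each genotype, at 7.77 and 15.75.

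The 17 chloride and bicarbonate carriers held 11 reliable members, 8 higher and 3 lower as listed, 6 and 5 on one scale, and none passed. Slc12a5, the potassium-chloride exporter KCC2 of neurons, was at 0, 22.06 and 17.87 in WT, against 30.91, 24.19 and 0 in 5xFAD. Slc12a2, the chloride importer NKCC1, was at 0, 6.30 and 6.17 and at 14.53, 0 and 0. Neither gave a difference beyond the spread between mice (adjusted p = 0.974 and 0.901). Of the bicarbonate carriers, Slc4a5, a cotransporter of choroid plexus, was at 17.14, 12.34 and 3.61 and at 21.88, 19.92 and 61.89 (1.58 ± 0.790, adjusted p = 0.582). Slc4a7, a bicarbonate cotransporter, was at 0, 5.38 and 13.75 and at 9.96, 10.79 and 55.66. Slc4a8 was at 23.20, 18.14 and 40.70 and at 35.47, 35.48 and 7.62, and Slc4a10, a neuronal bicarbonate transporter, was listed in 1 WT mouse at 5.03 and in 2 5xFAD mice at 4.95 and 18.07. Of the rest, Slc26a11, an anion exchanger, ranged from 8.16 to 11.26 in 5 mice and was at 0 in WT mouse 1. Its values came from 2 exons that shared no mouse. One was listed in 5xFAD mice 1 and 3, the other in WT mice 2 and 3 and 5xFAD mouse 2. Slc26a2, a sulfate transporter, ranged from 5.88 to 9.41 in 5 mice and was at 0 in 5xFAD mouse 3. Slc12a9 and Slc4a2, an anion exchanger, were AD unique. Slc4a3, another anion exchanger, and Slc26a10 were listed in both mice numbered 2 alone. Slc12a4, Slc12a7 and Slc26a1 were listed in 1 5xFAD mouse each, at 4.69 to 8.99.

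The choroid plexus lies beside the hippocampus, and 4 members known from it are given with its markers. This choice is not a complete list of the members found in that tissue. Slc13a4 was at 36.35, 17.38 and 18.57 in WT, against 46.12, 36.24 and 96.51 in 5xFAD (log2 fold change 1.22 ± 0.643, adjusted p = 0.598, and 0.63 on one scale), and the lowest 5xFAD value lay just under the highest WT value. Slc22a8, an organic anion transporter, was at 10.26, 20.36 and 5.92 and at 13.72, 28.93 and 36.43, and Slc22a6, a related carrier, was at 0 to 5.86. The 4 markers Ttr, Kl, Folr1 and Slc4a5, itself the remaining member of these, had peaks in some mouse, with a summed fold enrichment of 27.48 to 51.83 in WT and 28.5 to 96.36 in 5xFAD. Ttr was at 19.66, 6.92 and 42.26 and at 62.09, 0 and 25.47, and Folr1 was listed in 1 mouse. The part of choroid plexus in these values was not tested.

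Carriers that supply acetyl-CoA, citrate, acetate or fatty acids had 6 members, some of them also counted under the groups below, all reliable, 5 higher and 1 lower as listed and 4 and 2 on one scale. Of the 6, 4 were AD unique, 1 AD absent and 1 overlay, so most of these directions follow the listing. Slc25a1, the mitochondrial citrate carrier, was at 0, 4.17 and 0 in WT, against 7.23, 4.41 and 7.95 in 5xFAD (2.09 ± 0.813, adjusted p = 0.582). In mouse number 2 the genotypes were close. Slc27a4, a fatty acid transport protein with acyl-CoA synthetase activity, was at 0, 6.17 and 0 and at 10.50, 12.67 and 8.06 (2.54 ± 0.905, adjusted p = 0.582), while its relative Slc27a1 was at 11.25, 0 and 4.90 and at 11.62, 0 and 0. Slc25a1 and Slc27a4 were AD unique and passed the filter through 5xFAD alone, so their p do not support a difference. Slc13a3 and Slc16a7 were AD unique too, and Slc27a1 was AD absent. Slc13a3, a dicarboxylate carrier, was at 5.71, 0 and 0 and at 12.15, 0 and 7.24. The monocarboxylate carriers Slc16a1 and Slc16a7 were at 6.33, 5.91 and 0 and at 6.31, 0 and 0 in WT, and at 8.75, 6.33 and 0 and at 6.15, 7.06 and 0 in 5xFAD.

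Of the other groups, 12 of the 14 carriers of glucose, monocarboxylates and polyols were reliable, 11 higher and 1 lower as listed and 9 and 3 on one scale, and 6 of them were AD unique. Beside the counts of each group, 4085 of all 5444 reliable mRNAs were higher as listed and 2802 on one scale. AD unique mRNAs were 18.5% of all reliable ones. Slc2a1, the glucose transporter GLUT1 of vessels and astrocytes, was at 9.22, 11.77 and 5.10 and at 17.93, 8.05 and 10.78, and the genotypes overlapped. Of the 4 vessel markers, which include it, Cldn5 and Pecam1 had no peak, so the list sums Flt1 and Slc2a1 itself. The sum was 20.52 to 46.56 in WT and 58.7 to 114.4 in 5xFAD, and on one scale the ranges overlapped (29.13 to 55.24 and 53.9 to 75.67). Flt1 was at 30.65, 34.79 and 15.42 in WT, against 49.84, 50.65 and 103.6 in 5xFAD. The part of vessels in Slc2a1 was not tested. Slc2a13, a myo-inositol symporter, had no peak in either mouse numbered 2 and 12.92 to 27.34 in the rest. Of 10 reliable metal carriers, 9 were higher as listed and 8 on one scale. Slc30a1, which exports zinc from cells, was at 16.07, 21.81 and 16.62 and at 21.19, 30.90 and 49.55, and Slc30a3, which loads zinc into synaptic vesicles, at 12.03, 10.73 and 8.68 and at 26.65, 11.29 and 19.60. Slc30a9 had no peak in either mouse numbered 1 and 19.74 to 24.81 in the rest. In both groups none passed.

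Amino acid carriers had 18 members, 15 of them reliable, 8 higher and 7 lower as listed and 7 and 8 on one scale, with 4 AD unique and 4 AD absent. Slc7a5, the large neutral amino acid carrier LAT1, was at 17.80, 0 and 23.45 and at 22.84, 22.08 and 38.86. Slc43a2, another carrier of large neutral amino acids, was at 6.22, 20.85 and 12.08 and at 5.36, 18.99 and 0 (-1.34 ± 1.17, adjusted p = 0.813). Of 9 reliable exchangers of protons, sodium and calcium, 6 were higher and 3 lower as listed, and 5 and 4 on one scale. Slc24a3, a potassium-dependent sodium/calcium exchanger, was at 30.01, 12.13 and 28.10 and at 46.53, 16.63 and 43.39, with both mice numbered 2 lowest. Of the sodium/calcium exchangers of plasma membranes, Slc8a2 was at 10.03 to 46.07 in 5 mice and 0 in 5xFAD mouse 3, and Slc8a3 at 10.69, 11.73 and 9.85 and at 12.92, 17.25 and 28.27. None of these members passed.

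Of the 20 mitochondrial carriers, 8 were reliable and 12 were not, and Slc25a22 and Slc25a23 had a peak in all 6 mice, for Slc25a23 not in the same region. The 8 were 6 higher and 2 lower as listed and 4 and 4 on one scale. Over all members 104 of 145 were reliable (71.7%, and 71.7% of all ac4C mRNAs). Slc25a12, the aspartate/glutamate carrier, had no peak in either mouse numbered 1 and 8.19 to 18.68 in the rest. Among 18 carriers of nucleotide sugars and nucleosides 10 were reliable, 6 higher and 4 lower as listed and 4 and 6 on one scale, and 5 had peaks in all 6 mice. Slc35f3 was at 31.18, 29.53 and 19.63 and at 21.17, 10.56 and 37.64, and Slc29a3, an equilibrative nucleoside transporter of lysosomes, ranged from 0 in 5xFAD mouse 2 to 110.9 in 5xFAD mouse 3. Of the 14 carriers of organic ions, vitamins, choline and lipids, 13 were reliable, and Slc22a17 was at 20.66 to 38.84 in 5 mice and 0 in 5xFAD mouse 3. The Slc22a13b-ps pseudogene, named by the table, was listed in 2 WT mice and 1 5xFAD mouse. Slc4a1ap, Slc9a3r1 and Slc9a3r2 carry the name but are no carriers. The first encodes kanadaptin and the others the scaffolds NHERF1 and NHERF2. Slc9a3r1 was at 6.84, 14.08 and 21.94 and at 10.68, 19.99 and 27.56, Slc9a3r2 at 5.38, 20.27 and 9.44 and at 6.32, 21.07 and 18.33, and Slc4a1ap at 28.80, 15.83 and 19.84 and at 22.41, 12.01 and 0.

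AD unique mRNAs were 24 of the 104 reliable members (23.1%, against 18.5% of all reliable mRNAs), and AD absent mRNAs 13 (12.5%, against 10.8%). These counts moved with each mouse, and so did those over all mRNAs. Leaving out a WT mouse gave 41 (mouse 1), 42 (mouse 2) or 45 (mouse 3) AD unique members and 4, 7 or 6 AD absent ones. Over all reliable mRNAs the AD unique share was then 35.2 to 38.8%, and it was 42.9 to 46.4% of the members. Leaving out a 5xFAD mouse gave 8, 13 or 17 AD unique members and 36, 33 or 24 AD absent ones, and the AD absent share was then 24.3 to 33.1% of all and 24.7 to 40.9% of the members. With equal numbers of top peaks the counts were 15 and 18, or 16.9% and 20.2%, against 12.3% and 17% of all. A peak in 3 of 3 mice against 0 of 3 left 3 AD unique members and 0 AD absent ones, and 88 and 21 of all.

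Genes that work with these carriers were examined as well. Of 28 (sodium and calcium pumps, proton pump subunits, WNK kinases and their targets, chaperones, enzymes of glutamate and GABA, scaffolds and vesicle proteins), 21 had a peak in some mouse and 17 were reliable, 15 higher and 2 lower as listed, 9 and 8 on one scale, and none passed. Of all 5444 reliable mRNAs, 4085 were higher as listed and 2802 on one scale. Wnk2, a kinase that regulates chloride carriers, was at 134.5, 112.9 and 33.08 in WT, against 163.8, 156.4 and 62.36 in 5xFAD. Gad1, which makes GABA, was at 0, 0 and 6.42 and at 42.12, 4.91 and 9.18 (adjusted p = 0.582). Of 2 other transporter families, the ABC transporters had 21 members, 16 of them reliable, with a median log2 fold change of 1.22 (0.65 on one scale) and 0 called. The ATP-driven ion pumps had 34 members, 19 reliable, with a median of 0.61 (0.06 on one scale) and 0 called. The difference between these families and the solute carriers was not tested.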

How the data were processed

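Peaks were made by the authors. Submitters' processing notes name FastQC, cutadapt 1.9.3 for trimming and HISAT2 2.04 on mm10, and the methods add MACS with input as control, removal of peaks overlapping an IgG peak, and a fold enrichment of capture minus IgG over input. Each deposited table gave a fold enrichment (a ratio), a score (-10 log10 of the caller's p, at least 40 in the tables) and an FDR in percent; whether the deposited ratio is that of the formula or the caller's own could not be settled. The tables hold no read counts, so precision is the spread between mice. The authors' rule for reliable mRNAs (at least 2 of 3 mice) was kept, without their RNA-seq filter.

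Groups came from the labels. A few genes that the rules name are not reported here, but stay in the fits and counts. Members, gene lists and tests were chosen with earlier results of these data known. Named genes are the 10 most enriched members, up to 10 per direction without overlap by limma p, those in 3 of 3 against 0 of 3 mice, up to 3 overlay members and 3 regions per direction, the members of the transmitter, chloride and acetyl-CoA lists with up to 4 of other lists, and the 5 least variable. Other names, among them the members called without 5xFAD mouse 3, were chosen after their values were seen, as was the placing of Slc4a1ap with the genes that are no carriers. limma 3.58.1 (R 4.3.3) was fitted on log2(fold enrichment + 1) for all reliable mRNAs, overlay mRNAs and regions (peaks of 1 strand overlapping by at least 1 bp, highest peak per mouse), with Benjamini-Hochberg adjustment. The fit was tested on simulated normal values. These lack the many values of 0 of unlisted mRNAs, so that check does not cover them. Values per mouse were compared by exact permutation (scipy 1.17.1). Deviations from the genotype means correlated at r = 0.53, 0.47 and 0.29 for mice 1, 2 and 3 over 5444 mRNAs and at -0.34 to -0.12 for different numbers. As the deviations of a genotype sum to 0 for each mRNA, the negative values follow from the positive ones and are no separate result. The labels do not say whether a number marks a litter or batch. Nor do they say that a replicate is a separate animal beyond its number, so p covers only the spread between these samples. Of the 328 solute carrier regions, 294 fell within 1 exon. Sequences are from the GRCm38.p6 assembly (mm10 chromosomes), with exons from RefSeq and, for Ensembl transcripts, GENCODE. Alternatives covered left-out mice, peak thresholds, scaling, pseudocount, filter, peak summary, the replicate block and, chosen after seeing the data, limma's variance settings.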

Additional observations from a re-analysis of the deposited data

How the results depend on the processing

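Counts of called members moved with the setting. Of reliable members, 0 were called as reported, 7 of 97 without 5xFAD mouse 3 (4.89% of all mRNAs; 0 without any other mouse, a range of 0 to 7), 8 of 80 without both mice numbered 3 (8.63% of all), 3 of 104 with a pseudocount of 0.1 (2% of all), 3 of 58 with a peak in 3 of 3 mice required (3.24%), and 3 of 104 each with an mRNA's highest peak (1.52%) or its mean over peaks (1.71%) used instead of the sum. Solute carrier regions called were 0 as reported, 0 to 11 when one mouse was left out (11 of 136 without 5xFAD mouse 3, 9.38% of all), 12 of 99 without both mice numbered 3 (17.9% of all regions), 2 of 152 on one scale (1.94%), 3 of 152 with a pseudocount of 0.1 (2.83%) and 3 of 58 with a peak in 3 of 3 mice (7.79%). A member or region can pass the filter through 1 genotype alone, so these counts are no support for a difference. With the replicate block 0 were called in all 3 fits, as with quantile normalization, and the block changed no call; overlay members called were 0 under every setting run. Variance settings of limma were tried after seeing the data: with a variance trend, a robust prior or both, 0 members were called and 5, 8 and 6 were higher at an unadjusted p under 0.05, against 8, and the adjusted p of Slc15a3 was 0.485, 0.0896 and 0.512, against 0.0772. The difference in mRNAs per mouse ranged from 4.17 to 23.2 over left-out mice and was 13 under the block (exact permutation p = 0.5), and it was -1.33 with equal numbers of top peaks. That in peaks ranged from 17.5 to 52.5 and was 0 with equal top peaks. The median fold enrichment differed by 0.471 to 3.71 over left-out mice and by -1.15 on one scale. The coding share differed by -0.875 to 1.23 points over left-out mice and by -1.84 with equal top peaks. The gap in coding share between solute carrier and other peaks was -12.8 to -11.6 points over left-out mice, where 5 mice cannot give a p under 0.0625, and -12.7 or -13.3 with stronger or equal top peaks. AD unique members ranged from 8 to 45 and AD absent ones from 4 to 36 over left-out mice; the first were 15 with equal top peaks and 3 at 3 of 3 against 0 of 3, and the second 7 without both mice numbered 3 and 0 at 3 of 3 against 0 of 3. Of the single genes and regions, the log2 fold change of Slc26a2 ranged from -1.51 to 0.05 over left-out mice and changed sign without 5xFAD mouse 3. The cause of these shifts was not tested. With 3 mice per genotype and no read counts, small differences were not detectable, and large ones could be missed too. For 1 region of Slc6a11 the SE of the log2 fold change was 2.31. A missing call is therefore no evidence that a level was unchanged.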
